A study of Mus musculus with 6 samples.

Results

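The genes described here encode p21 (*Cdkn1a*) and 3 further inhibitors of cyclin-dependent kinases (*Cdkn1b*, *Cdkn2c* and *Cdkn2d*), the 3 D-type cyclins (*Ccnd1*, *Ccnd2* and *Ccnd3*) and the 3 Gadd45 proteins (*Gadd45a*, *Gadd45b* and *Gadd45g*). They were chosen by gene symbol, and all 10 were found among the 21461 genes of the deposited count table. RNA was sequenced from the arcuate nucleus (ARC) of the hypothalamus. The mice were C57BL/6 males aged 10 weeks, and the tissue was taken 24 h after they had been injected i.p. The 3 groups had received dexamethasone (Dex, a synthetic agonist of the glucocorticoid receptor, GR) plus Zj7, Dex alone, or vehicle, with Dex at 10 mg/kg and Zj7 at 50 mg/kg. Zj7 is a naturally derived steroidal compound studied as a selective GR modulator. The sample labels give a single dose of 10 mg/kg for the combination, and the doses of the design text are used here. The labels call the vehicle animals fed and do not give the feeding state of the other groups, so if feeding differed, it and treatment cannot be told apart. Each group had 2 libraries. Since no source used here states that a different mouse stood behind each, the p-values cover the spread from library to library, which may be technical.

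The kinases CDK4 and CDK6, with a D-type cyclin as partner, phosphorylate the retinoblastoma (Rb) proteins in the G1 phase and so release E2F factors, which switch on genes of DNA synthesis. Inhibitors of the Cip/Kip family, p21 and p27 (*Cdkn1b*), bind cyclin and kinase together, whereas those of the INK4 family, p18 (*Cdkn2c*) and p19 (*Cdkn2d*), bind CDK4 and CDK6 alone. Gadd45 proteins are small stress sensors that interact with p21, with CDK1 and with the MAP kinase kinase kinase Map3k4, and they take part in DNA repair and demethylation. Neurons of the adult ARC no longer divide, and in other tissues *Cdkn1a* is known both as a target of the tumour suppressor p53 and as a gene induced by glucocorticoids.

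The start sites of *Cdkn1a* are shown because it was the member with the largest change. The gene lies on chromosome 17 at 29090979 to 29100722 on the plus strand of GRCm38.p6. RefSeq windows of 300 bases, from 250 before to 50 after a start site, were found for 8 of the 10 members, with 11 windows in all. *Ccnd1* and *Ccnd2* had no window, so the motif search below does not cover them. In the first of the 2 *Cdkn1a* windows (chr17:29090729-29091028, plus strand), capitals mark the 2 matches to the p53 half-site, which begin 73 and 51 bases before the start site, and the second window (chr17:29093519-29093818, plus strand) held none of the motifs searched.
Cdkn1a window 1: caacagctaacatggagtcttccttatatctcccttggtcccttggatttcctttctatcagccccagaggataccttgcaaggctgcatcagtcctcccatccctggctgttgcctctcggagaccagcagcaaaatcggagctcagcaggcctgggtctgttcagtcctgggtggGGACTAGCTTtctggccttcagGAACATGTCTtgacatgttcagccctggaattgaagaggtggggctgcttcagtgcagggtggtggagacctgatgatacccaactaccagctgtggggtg
Cdkn1a window 2: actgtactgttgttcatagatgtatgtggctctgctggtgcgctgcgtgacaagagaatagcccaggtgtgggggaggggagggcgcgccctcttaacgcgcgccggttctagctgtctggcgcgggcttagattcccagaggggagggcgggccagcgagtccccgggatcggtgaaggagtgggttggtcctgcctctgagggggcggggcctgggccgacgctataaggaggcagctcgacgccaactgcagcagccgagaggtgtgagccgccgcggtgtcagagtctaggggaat

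In all, 4 motifs were searched on both strands. The palindromic core of the glucocorticoid response element (GRE), searched as GNACA and TGTNC with any 3 bases between them, was found in none of the 11 windows and in 0.475% of all 32851 windows. The GRE half-site TGTTCT, which overlaps the core in its last letters, was found in 1 window, that of *Cdkn2c*, against 19% of all windows. The FoxO site GTAAACA was found in 1 window of *Ccnd3*, against 3.65% of all windows. The p53 half-site was found in a window each of *Cdkn1a*, *Cdkn2d* and *Gadd45a*, against 8.36% of all windows. These matches are letters in a short window only, and no binding was measured here. The search says nothing of sequence outside these windows, where the GRE that the study lists for *Cdkn1a* was not looked for.

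Libraries held 50704789 to 61122938 counts, and the unit of level below is CPM, for which counts are scaled to a common library size with TMM, a factor that offsets differences in RNA composition and ran here between 0.987 and 1.01. The first principal component took 47.5% of the variance and set the vehicle libraries apart from the other 4. All 8 listed genes of ARC neurons, among them *Agrp*, *Npy* and *Ghrh*, were measured, at sums of 176 and 189 CPM in the Dex+Zj7 libraries, 224 and 225 CPM in the Dex libraries, and 177 and 279 CPM in the vehicle libraries. Between the vehicle libraries *Pomc*, named after its values were seen, differed widely (28.0 and 131 CPM). Of 8 glucocorticoid-induced genes, 5 rose with Dex against vehicle, led by *Fkbp5*, a chaperone of GR, which had an adjusted p of 3.26e-04 and a log2 fold change of 1.89 (SE 0.129). Because the tissue was sequenced whole, fewer cells of a type and less RNA per cell cannot be told apart in any result below.

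The first comparison asked what Dex did to these genes. *Cdkn1a* rose, *Ccnd1* and *Ccnd2* fell, and the other 7 did not pass an adjusted p of 0.05 in the quasi-likelihood test of edgeR, adjusted by Benjamini-Hochberg over all 21461 genes. Over all genes, 11.5% passed this test, 5.03% higher and 6.45% lower with Dex. The libraries of both groups did not overlap for 8 of the 10 members, 6 of them higher and 2 lower with Dex, against 55.9% of all genes. At an unadjusted p under 0.05 there were 5 members, where 27.8% of all genes stood under that value. The median log2 fold change was 0.14 over the members and 0.00 over all genes. The second comparison set Dex+Zj7 against the same vehicle libraries. It called the same 3 members in the same directions, where 7.38% of all genes passed, 3.4% higher and 3.97% lower. Here too the libraries did not overlap for 8 members, against 58.1% of all genes, and 4 members had an unadjusted p under 0.05, against 25.1% of all genes. The median over the members was 0.08.

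The third comparison asked whether adding Zj7 to Dex changed the level of any member. None passed edgeR's quasi-likelihood test, nor did any pass when DESeq2, limma-voom or the exact test of edgeR took its place. A single gene of the table, no member, passed the quasi-likelihood test (0.00466% of all genes). At an unadjusted p under 0.05 there was 1 member, *Cdkn1a*, where 5.24% of all genes had one. *Cdkn1a* was also the only member whose Dex+Zj7 and Dex libraries did not overlap, against 31.3% of all genes.

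**Figure D1:**
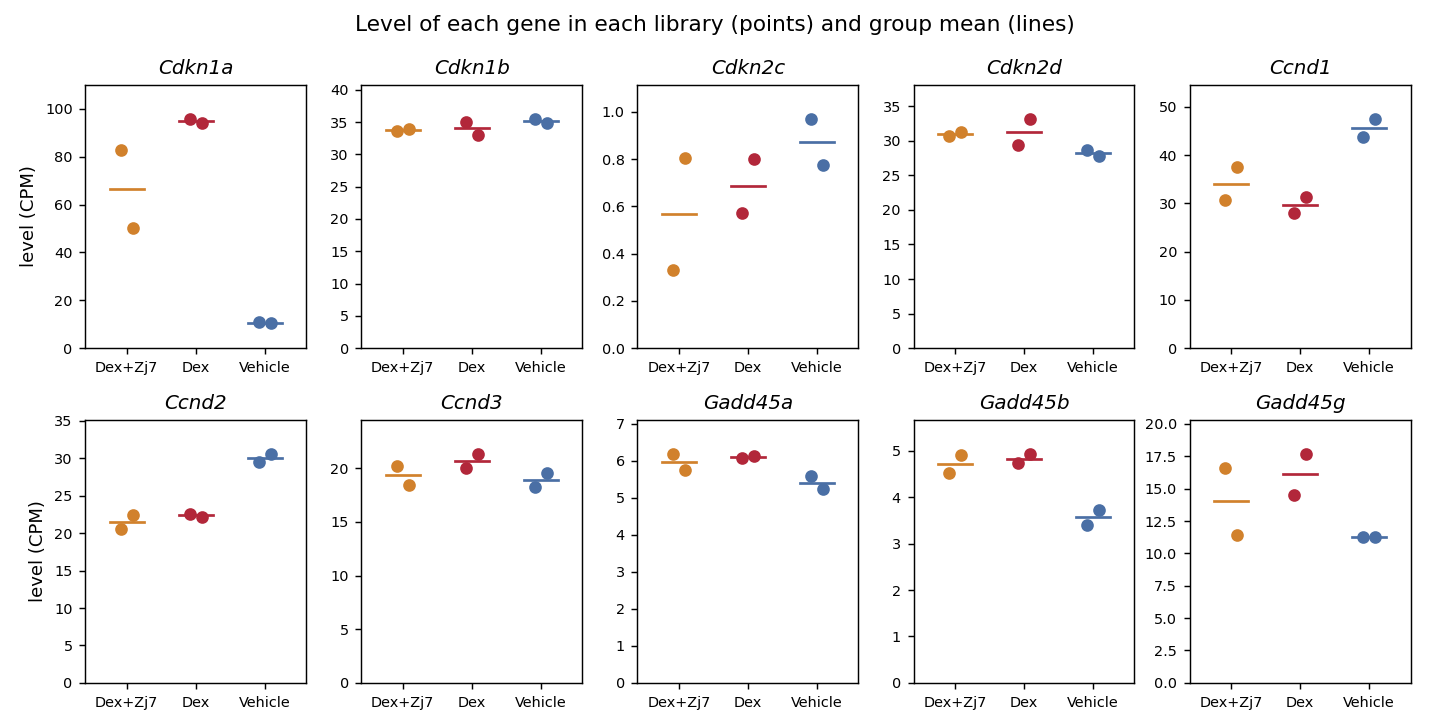
Level of each member in CPM (vertical axis, from 0, on a scale of its own in each panel) in the 2 libraries of the Dex+Zj7, Dex and vehicle groups, with points for libraries and lines for group means. For *Cdkn1a* the 4 libraries with Dex lie between 50.1 and 95.7 CPM and both vehicle libraries at 11.1 CPM or less, and for *Ccnd1* and *Ccnd2* all 4 lie below both vehicle libraries.

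Among the inhibitors, *Cdkn1a* had 82.9 and 50.1 CPM in the Dex+Zj7 libraries, 95.7 and 94.1 CPM in the Dex libraries, and 11.1 and 10.3 CPM in the vehicle libraries. Every library with Dex stood above both vehicle libraries, and the Dex+Zj7 libraries were 1.65-fold apart from each other, whereas the Dex libraries were 1.02-fold apart. With Dex its level was 8.87-fold that with vehicle (95% interval 6.39 to 12.3, log2 fold change 3.15, SE 0.208, adjusted p = 2.91e-04). That placed *Cdkn1a* 13th of all 21461 genes by p and 6th in fold among the 15531 genes with a mean of at least 1 CPM. With Dex+Zj7 it was 6.21-fold that with vehicle (interval 4.49 to 8.61, log2 fold change 2.64, SE 0.206, adjusted p = 7.55e-04). Both calls held in all 14 alternative analyses, with log2 fold changes of 3.10 to 3.20 for Dex and 2.23 to 2.95 for Dex+Zj7 when single libraries were left out.

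Between Dex+Zj7 and Dex, the log2 fold change of *Cdkn1a* was −0.51 (SE 0.184, 95% interval −0.93 to −0.09, adjusted p = 0.909 by edgeR), a level 0.700 times that with Dex alone. Its size depended on which Dex+Zj7 library was kept. Without Dex+Zj7 replicate 1 the change was −0.92 (adjusted p = 0.0661 by edgeR), and without Dex+Zj7 replicate 2 it was −0.20 (adjusted p = 0.998 by edgeR). Replicate 2 of Dex+Zj7 was also the lower library of its group in the summed level of the 8 glucocorticoid-induced genes, at 597 CPM beside 759 CPM in replicate 1, with 786 and 748 CPM in the Dex libraries and 476 and 408 CPM in the vehicle libraries. Some genes were higher in replicate 2 than in replicate 1 of Dex+Zj7. Among them were *Agrp* (15.8 and 13.5 CPM), *Npy* (43.8 and 39.7 CPM) and *Gadd45b* (4.92 and 4.52 CPM). The part of Dex+Zj7 replicate 2 in the *Cdkn1a* result beyond leaving it out was not tested.

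The other Cip/Kip member, *Cdkn1b*, which encodes p27, a brake on the exit from quiescence, stayed within a narrow range. It had 33.6 and 33.9 CPM in the Dex+Zj7 libraries, 35.0 and 33.0 CPM in the Dex libraries, and 35.4 and 34.9 CPM in the vehicle libraries. Its log2 fold change was −0.05 with Dex against vehicle (95% interval −0.20 to 0.10, adjusted p = 0.690) and −0.06 with Dex+Zj7 against vehicle (interval −0.21 to 0.09).

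Of the INK4 members, *Cdkn2d* had the higher level per transcript length. It had 30.7 and 31.3 CPM in the Dex+Zj7 libraries, 29.5 and 33.1 CPM in the Dex libraries, and 28.7 and 27.9 CPM in the vehicle libraries. All 4 libraries with Dex were above both vehicle libraries, but neither the log2 fold change of 0.15 with Dex (adjusted p = 0.262) nor that of 0.13 with Dex+Zj7 (adjusted p = 0.329) passed the test. *Cdkn2c* was scarce, with 19 and 49 counts in the Dex+Zj7 libraries, 29 and 44 counts in the Dex libraries, and 56 and 42 counts in the vehicle libraries. At this depth its 95% interval for Dex against vehicle ran from −1.26 to 0.58 on the log2 scale, too wide to tell a rise from a fall at these counts. Of 3 further inhibitors measured (*Cdkn1c*, *Cdkn2b* and *Cdkn3*), none passed in any comparison. *Cdkn2a*, also listed, was absent from the count table.

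The D-type cyclins split. *Ccnd1*, the partner of CDK4 and CDK6 that mitogens induce, had 30.7 and 37.5 CPM in the Dex+Zj7 libraries, 28.0 and 31.3 CPM in the Dex libraries, and 43.7 and 47.4 CPM in the vehicle libraries. All 4 libraries with Dex were below both vehicle libraries. It fell with Dex to 0.650 times the vehicle level (log2 fold change −0.62, SE 0.105, adjusted p = 0.00993) and with Dex+Zj7 to 0.749 times that level (log2 fold change −0.42, SE 0.104, adjusted p = 0.0481). The call for Dex was lost without vehicle replicate 2 (adjusted p = 0.0729). The call for Dex+Zj7 was lost without Dex+Zj7 replicate 1 (adjusted p = 0.224), vehicle replicate 1 (adjusted p = 0.112) or vehicle replicate 2 (adjusted p = 0.247), with the log2 fold change between −0.58 and −0.28 when single libraries were left out.

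*Ccnd2*, a D-type cyclin that neural progenitors also use, had 20.5 and 22.4 CPM in the Dex+Zj7 libraries, 22.6 and 22.2 CPM in the Dex libraries, and 29.5 and 30.6 CPM in the vehicle libraries. Again all 4 libraries with Dex lay below both vehicle libraries. The level fell with Dex to 0.746 times that with vehicle (log2 fold change −0.42, SE 0.0763, adjusted p = 0.0123) and with Dex+Zj7 to 0.714 times (log2 fold change −0.49, SE 0.0762, adjusted p = 0.0103). The call for Dex was lost without vehicle replicate 1 (adjusted p = 0.0600) or replicate 2 (adjusted p = 0.102). That for Dex+Zj7 was lost without Dex+Zj7 replicate 1 (adjusted p = 0.0837), vehicle replicate 1 (adjusted p = 0.0542) or vehicle replicate 2 (adjusted p = 0.0830).

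*Ccnd3*, the third D-type cyclin, had 20.2 and 18.4 CPM in the Dex+Zj7 libraries, 20.0 and 21.3 CPM in the Dex libraries, and 18.2 and 19.5 CPM in the vehicle libraries. The 2 Dex libraries were above both vehicle libraries and only 1 of the 2 Dex+Zj7 libraries was. Its log2 fold changes of 0.13 with Dex (95% interval −0.07 to 0.33) and 0.03 with Dex+Zj7 (interval −0.16 to 0.23) did not pass the test. Between Dex+Zj7 and Dex, the changes of *Ccnd1* (0.20, interval −0.04 to 0.44), *Ccnd2* (−0.06, interval −0.24 to 0.11) and *Ccnd3* (−0.10, interval −0.29 to 0.10) did not pass either.

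**Figure D2:**
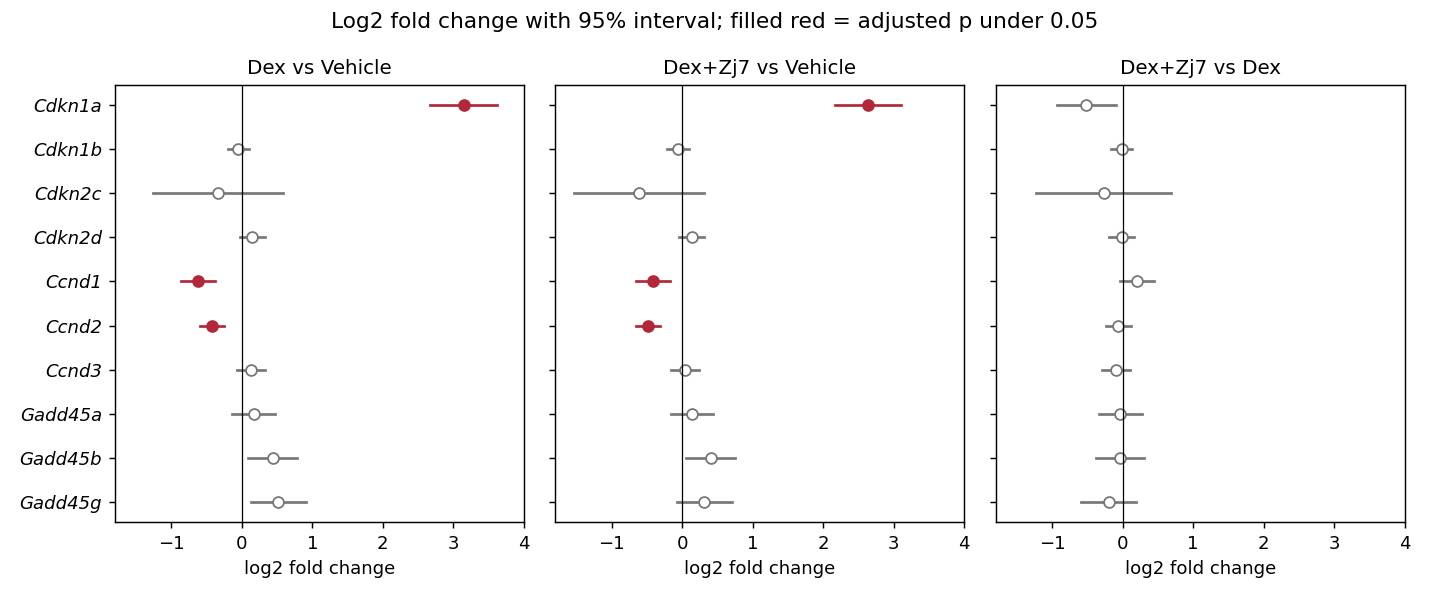
Log2 fold change of each member (horizontal axis) with its 95% interval in the 3 comparisons, the first named group over the second, with filled points where the adjusted p was under 0.05. *Cdkn1a* stands at 3.15 and 2.64 against vehicle and at −0.51 between Dex+Zj7 and Dex, while *Ccnd1* and *Ccnd2* are the 2 called members below 0.

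The 3 *Gadd45* genes were all higher in each Dex library than in either vehicle library, yet none passed the adjusted test. *Gadd45b*, which activity induces in neurons, had 4.52 and 4.92 CPM in the Dex+Zj7 libraries, 4.74 and 4.93 CPM in the Dex libraries, and 3.41 and 3.73 CPM in the vehicle libraries. The groups with Dex did not overlap the vehicle group, with log2 fold changes of 0.44 for Dex (SE 0.152, adjusted p = 0.101) and 0.40 for Dex+Zj7 (SE 0.152, adjusted p = 0.140). *Gadd45g* had 16.6 and 11.4 CPM in the Dex+Zj7 libraries, 14.5 and 17.7 CPM in the Dex libraries, and 11.2 and 11.3 CPM in the vehicle libraries. Its lower Dex+Zj7 library, replicate 2, was level with vehicle. The log2 fold change was 0.52 for Dex (SE 0.172, adjusted p = 0.0900) and 0.32 for Dex+Zj7 (SE 0.172, adjusted p = 0.300).

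The call on the last 2 genes depended on the test for Dex against vehicle. *Gadd45g* passed with DESeq2 (adjusted p = 0.0151), with edgeR's exact test (adjusted p = 0.0308), with the Dex+Zj7 libraries left out of the fit (adjusted p = 0.0407), and without either Dex+Zj7 replicate alone (adjusted p = 0.0383 and 0.0414 by edgeR). *Gadd45b* passed with edgeR's exact test (adjusted p = 0.0452), which thereby called 5 of the 10 members. *Gadd45a*, the member that p53 induces after DNA damage, had 6.18 and 5.74 CPM in the Dex+Zj7 libraries, 6.08 and 6.12 CPM in the Dex libraries, and 5.59 and 5.22 CPM in the vehicle libraries. Its log2 fold change was 0.17 with Dex (95% interval −0.13 to 0.48) and 0.14 with Dex+Zj7 (interval −0.16 to 0.44).

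Levels of different members were compared per transcript length, in the FPKM values of the authors. *Cdkn1a* was the highest member in the Dex+Zj7 libraries (mean 31.7 ± 11.1 FPKM, SD, n = 2) and in the Dex libraries (45.3 ± 0.753 FPKM), and 6th of the 10 in the vehicle libraries (5.17 ± 0.278 FPKM). Its share of the summed FPKM of the members was 29.6% with Dex+Zj7, 37.0% with Dex and 6.41% with vehicle. *Cdkn2d* followed at 22.3 FPKM with Dex+Zj7 and 22.5 FPKM with Dex, and led with vehicle at 20.6 FPKM. With vehicle the order went on with *Cdkn1b* (13.6 FPKM), *Ccnd1* (11.1), *Gadd45g* (9.66) and *Ccnd3* (8.76), and after *Cdkn1a* came *Ccnd2* (4.64), *Gadd45a* (4.09), *Gadd45b* (2.61) and *Cdkn2c* (0.487). No neighbours in that order had overlapping libraries. With Dex, *Ccnd1* stood at 7.11 FPKM, below *Ccnd3* at 9.28 FPKM. With Dex+Zj7 these cyclins, at 8.18 and 8.78 FPKM, overlapped.

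The genes around the members were read from lists of the G1 pathway. Of the 3 kinases, *Cdk6* fell with Dex to 1.68 and 1.60 CPM, against 3.11 and 2.94 CPM with vehicle (log2 fold change −0.88, SE 0.192, adjusted p = 0.0233). With Dex+Zj7 *Cdk6* had 2.04 and 1.90 CPM (log2 fold change −0.62, adjusted p = 0.0822). *Cdk4*, the other kinase partner of the D-type cyclins, had a log2 fold change of −0.15 with Dex (adjusted p = 0.207), and *Cdk2* did not pass either. None of the 3 Rb family genes passed, *Rbl1* coming nearest with Dex at −0.57 (adjusted p = 0.0520). The median log2 fold change with Dex was −0.28 over the kinases and 0.02 over the Rb family, beside 0.00 over all genes.

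Of 10 E2F and partner genes, 1 rose and 2 fell with Dex, at a median of −0.11. *E2f8*, a repressor of the family, fell with Dex (log2 fold change −2.20, SE 0.409, adjusted p = 0.0134) and with Dex+Zj7 (−1.71, adjusted p = 0.0331), at 0.139 and 0.180 CPM with Dex+Zj7, 0.0790 and 0.146 CPM with Dex, and 0.433 and 0.628 CPM with vehicle. In every library *E2f8* stood below the scarce *Cdkn2c*, so its fall rests on few counts. *E2f3* rose by 0.31 (adjusted p = 0.0445) and *E2f6* fell by 0.24 (adjusted p = 0.0472) with Dex, and neither passed with Dex+Zj7. Of 7 other cyclins measured (median 0.13 with Dex), 1 rose and 0 fell, and *Ccnb1*, also listed, was absent from the count table. *Ccng1*, a p53 target, rose with Dex (log2 fold change 0.68, SE 0.160, adjusted p = 0.0301). *Ccng1* had 92.2 and 61.0 CPM in the Dex+Zj7 libraries, 91.4 and 83.6 CPM in the Dex libraries, and 52.8 and 56.5 CPM in the vehicle libraries, so that Dex+Zj7 replicate 2 was again the lower library of its group. With Dex+Zj7 *Ccng1* did not pass (0.49, adjusted p = 0.102).

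Of 21 genes for p53 and its targets, to which *Ccng1* and the members were not counted, 1 rose and 0 fell with Dex, with a median of 0.05 beside 0.00 over all genes. It was *Sesn1*, a stress protein that restrains mTORC1, which changed by 0.52 (log2, SE 0.0814, adjusted p = 0.00782) for Dex and 0.35 (adjusted p = 0.0399) for Dex+Zj7. Of 13 genes of the stress kinase cascade on which Gadd45 proteins act, 1 passed, *Mapk11*, which encodes p38 beta and fell by 0.30 with Dex (adjusted p = 0.0352), where the median of the cascade was 0.11. No gene of these lists passed between Dex+Zj7 and Dex.

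Of 12 listed genes of dividing cells, *Bub1*, *Aurkb* and *Ccnb1* were absent from the count table. Of the 9 measured, 2 fell with Dex+Zj7 and 2 with Dex, at median log2 fold changes of −0.57 and −0.48. Their summed level was 31.8 and 33.2 CPM in the Dex+Zj7 libraries, 35.2 and 32.6 CPM in the Dex libraries, and 36.3 and 37.6 CPM in the vehicle libraries. Most of that sum was *Pcna*, the sliding clamp of DNA replication and repair, named after its values were seen, at 20.8 and 21.5 CPM with Dex+Zj7, 21.8 and 21.2 CPM with Dex, and 20.9 and 20.6 CPM with vehicle. *Mki67*, which marks cycling cells, fell with Dex (log2 fold change −2.15, adjusted p = 0.0424), at 0.237 and 0.182 CPM against 0.830 and 1.03 CPM with vehicle. With Dex+Zj7, *Mki67* did not pass (log2 fold change −1.72, adjusted p = 0.0849 by edgeR). *Top2a*, a topoisomerase of mitosis, fell with Dex+Zj7 to 0.0696 and 0.164 CPM (adjusted p = 0.0152) and with Dex to 0.316 and 0.127 CPM (adjusted p = 0.0269), against 0.727 CPM or more in the vehicle libraries. With Dex, *Mki67* and *Top2a* stood below the scarce *Cdkn2c* (0.572 and 0.801 CPM), so their falls rest on few counts. *Mcm3*, a subunit of the replication helicase, fell by 1.34 with Dex+Zj7 (adjusted p = 0.0174). With Dex, *Mcm3* did not pass (log2 fold change −0.81, adjusted p = 0.0588 by edgeR).

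Some markers of several non-neuronal cell types fell against vehicle, as *Ccnd1* and *Ccnd2* did. Of 9 microglia markers, 7 fell with Dex+Zj7 and 6 with Dex, and their summed level was 159 to 167 CPM with Dex+Zj7, 173 CPM in both Dex libraries, and 273 to 274 CPM with vehicle. Of 8 endothelium markers, 2 fell with Dex+Zj7 and 7 with Dex, at sums of 147 to 185 CPM, 84.9 to 101 CPM, and 195 to 200.4 CPM with vehicle. For 8 mural cell markers the counts were 5 and 7, at sums of 123 to 131 CPM with Dex+Zj7, 102 to 115 CPM with Dex, and 211 to 233 CPM with vehicle. For 8 oligodendrocyte markers they were 6 and 6, at sums of 4243 to 4490 CPM, 4147 to 4150 CPM, and 5107 to 5564 CPM with vehicle. The median log2 fold change with Dex was −1.43 over the microglia markers, −1.08 over endothelium, −0.94 over mural cells and −0.79 over oligodendrocytes, beside 0.00 over all genes. Of 8 markers each, astrocytes had 2 lower with Dex, oligodendrocyte precursors 2 higher and 3 lower, and tanycytes and ependyma 3 lower. No marker of these cell types passed between Dex+Zj7 and Dex. There the median log2 fold change was −0.09 over microglia, 0.84 over endothelium, 0.20 over mural cells and 0.16 over oligodendrocytes. None of the markers was at 0, since genes with a 0 in 1 library or more are absent from the table.

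On the scale of the vehicle mean, *Ccnd1* stood at 67.4% and 82.3% in the Dex+Zj7 libraries and at 61.3% and 68.6% in the Dex libraries. The microglia sum stood at 61.1% and 58.1% with Dex+Zj7 and at 63.3% and 63.1% with Dex, and the endothelium sum at 74.5% and 93.7% with Dex+Zj7 and at 51.2% and 43.0% with Dex. The neuron sum moved little, at 104% and 102% with Dex+Zj7 and at 102% and 104% with Dex, and none of its 8 markers passed. *Ccnd2* stood at 68.3% and 74.5% with Dex+Zj7 and at 75.2% and 74.0% with Dex. The part of these cell types in the lower *Ccnd1*, *Ccnd2* and *Cdk6* was not tested.

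**Figure D3:**
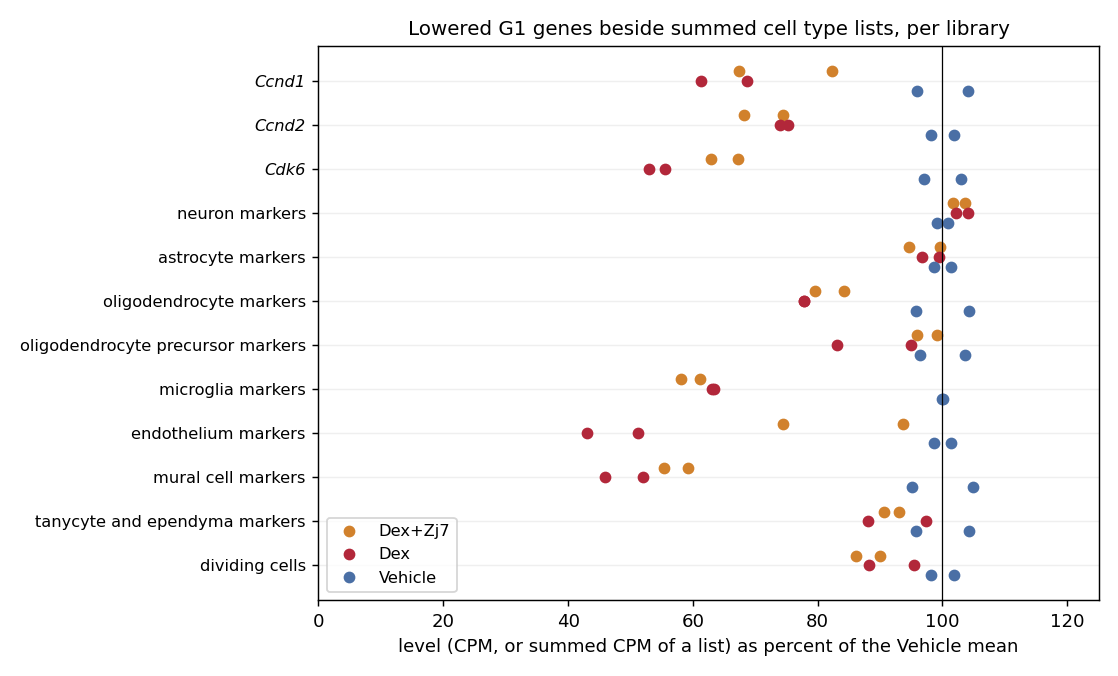
Level of *Ccnd1*, *Ccnd2*, *Cdk6* and the summed level of each marker list in every library, as a percent of the vehicle mean (horizontal axis, from 0), with 1 point for each of the 2 Dex+Zj7, 2 Dex and 2 vehicle libraries. *Ccnd1* and *Ccnd2* lie at 61.3% to 82.3% of vehicle in the libraries with Dex, the microglia sum at 58.1% to 63.3%, and the neuron sum at 102% to 104%.

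The 5 genes whose levels ran closest to those of *Cdkn1a* were found by the root mean square difference, over the 6 libraries, of log2 CPM minus the vehicle mean, among 13579 named genes with a mean of at least 1 CPM. They were *Insl6* (0.162), *Plin4* (0.230), *Pla2g3* (0.232), *Sgk3* (0.311) and *Fyb2* (0.401), where 0 would be an identical course. *Plin4*, which encodes a coat protein of lipid droplets, had 126 and 82.5 CPM in the Dex+Zj7 libraries, 117 and 128 CPM in the Dex libraries, and 16.5 and 18.8 CPM in the vehicle libraries. *Sgk3*, a kinase related to the glucocorticoid-induced *Sgk1*, had 49.0 and 32.6 CPM with Dex+Zj7, 57.6 and 50.5 CPM with Dex, and 8.08 and 8.25 CPM with vehicle. In all 5, as in *Cdkn1a*, Dex+Zj7 replicate 2 was the lower library of its group. Since the genes were picked for this likeness, these values are a description only.

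**Figure D4:**
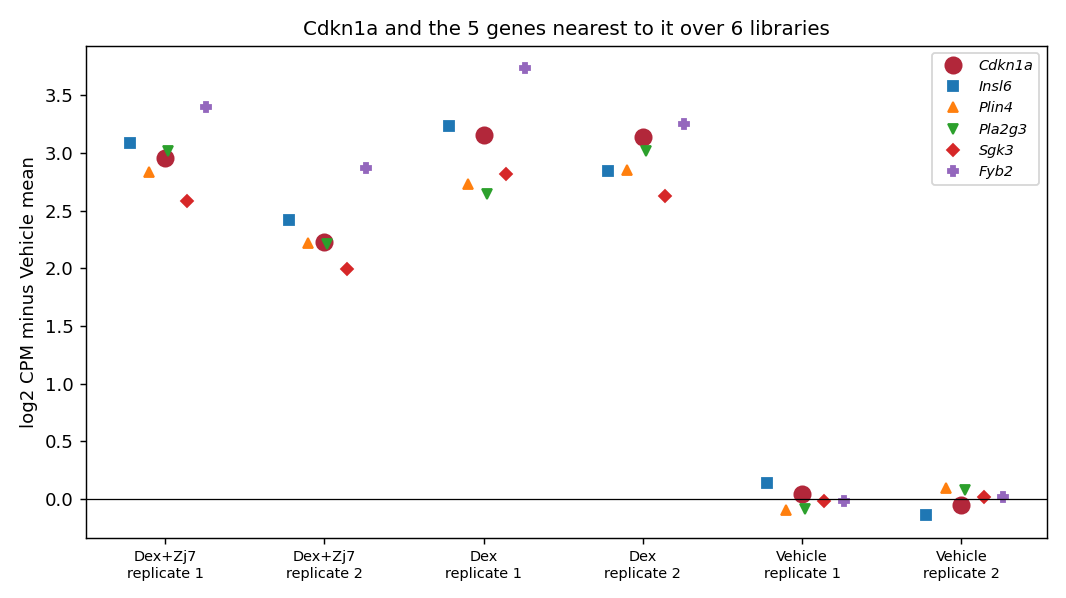
Log2 CPM minus the vehicle mean (vertical axis) of *Cdkn1a* and its 5 nearest genes in each of the 6 libraries (horizontal axis), with 1 symbol for each gene. All 6 genes are high in the 4 libraries with Dex and near 0 in both vehicle libraries, and in the Dex+Zj7 group replicate 2 lies below replicate 1 for each.

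In GENCODE, 5 members share their locus with a gene on the opposite strand. Libraries were made with a stranded kit, but nothing read here states whether counting took strand into account, so reads of overlapping genes may be mixed. *Cdkn1a* overlaps *AC167363.2*, for which no count was matched. *Ccnd1* (chromosome 7, 144929931 to 144939831, minus strand) overlaps *LTO1*, which had a log2 fold change of 0.01 with Dex where *Ccnd1* had −0.62. *Ccnd2* (chromosome 6, 127125162 to 127152188, minus strand) overlaps *9330179D12Rik*, at a mean of 1.46 CPM and a log2 fold change of 0.28 (adjusted p = 0.560), and *Gm43126*, for which no count was matched. *Ccnd3* overlaps *Bysl* (−0.02), and *Gadd45a* overlaps *E230016M11Rik* (0.49, adjusted p = 0.125).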

How the data were processed

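Stranded poly(A) libraries of ARC RNA were sequenced with an Illumina HiSeq. The authors removed low-quality reads, adapters and PCR duplicates, mapped the rest to mm10 with Bowtie2 and HISAT2 and assembled transcripts with StringTie. The deposited read counts are whole numbers per gene and library, not normalized, and the authors had dropped each gene that was at 0 in 1 library or more. A gene silent in a group is therefore not among the 21461 genes. FPKM values, likewise deposited by the authors, served here to order the members by level and for the ratios in the closing section. Columns of normalized log2 values and TPM were not used, nor were the fold changes and p-values of the authors' own comparisons.

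Differences were tested with glmQLFit and glmQLFTest, the quasi-likelihood functions of edgeR 4.0.16 under R 4.3.3. All 6 libraries entered 1 model with TMM factors, without covariates or any added filter. Each of the 3 comparisons had its own Benjamini-Hochberg adjustment across the whole table, and a call needed an adjusted p under 0.05. Standard errors are the size of the log2 fold change over the square root of the F statistic. CPM is relative to TMM-scaled library sizes, and log2 CPM used a prior count of 2. The 14 alternatives were RLE factors, total counts, DESeq2 1.42.0, edgeR's exact test, limma-voom (limma 3.58.1), genes with a mean of at least 1 CPM only, the compared groups only, a replicate block and each of the 6 libraries left out.

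At 50704789 to 61122938 counts a library, the members had 19 to 5169 counts in a library, and counting error and the spread between libraries were not separated. Both libraries of each group differed by more than sampling noise. The 10 members and 18 further lists of genes were chosen with earlier results of these data known. All members were named, with at most 4 genes of each list by the smallest p for Dex against vehicle, and the 5 genes nearest to *Cdkn1a*. Positions and promoter sequences are from RefSeq (GRCm38.p6, the assembly behind mm10) and overlaps from GENCODE.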

Additional observations from a re-analysis of the deposited data

How the results depend on the processing

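Of 417 recomputed log2 fold changes of members, 402 kept their side of the threshold, 9 lost the call and 6 gained it. Of those called in either setting, 0 reversed. Some that were called in neither changed sign. *Ccnd3* for Dex+Zj7 against vehicle, for example, had 0.03 in the main fit and −0.03 without Dex+Zj7 replicate 1. *Cdkn2c*, with a mean under 1 CPM, has no value under that filter. For Dex against vehicle, 3 members were called, 5 with edgeR's exact test and 1 to 4 when single libraries were left out. For Dex+Zj7 against vehicle the count was 3, and 1 to 3 when single libraries were left out, with 1 left without Dex+Zj7 replicate 1, vehicle replicate 1 or vehicle replicate 2. Between Dex+Zj7 and Dex it was 0 in all 14 alternatives. Where 1 library of a group was left out, the other was assumed to vary like those of the other groups.

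Over all genes, Dex against vehicle gave 2464 calls, 3716 with edgeR's exact test and 538 to 2397 without single libraries. Dex+Zj7 against vehicle gave 1583, 3007 with the exact test and 311 to 2330 without single libraries. Dex+Zj7 against Dex gave 1, 66 with DESeq2, 96 with the exact test, 0 with only these groups fitted and 0 to 3 without single libraries.

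The samples share replicate numbers in the labels, and deviations of same-numbered libraries from their group means correlated at −0.01 (Dex and Dex+Zj7), 0.32 (Dex and vehicle) and 0.02 (Dex+Zj7 and vehicle) over 15531 genes. No label says that a number marks a shared mouse, litter or day, and the libraries were not treated as pairs. With a replicate block the members called were 3, 3 and 0, and the calls over all genes 3666 for Dex against vehicle, 2612 for Dex+Zj7 against vehicle and 0 for Dex+Zj7 against Dex. Depth limits *Cdkn2c*, at 19 to 56 counts, more than the other members, which had 197 or more in each library.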

Other observations

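Ratios of group means in the authors' FPKM values stood close to those in CPM. For *Cdkn1a* the ratio was 6.13 in FPKM and 6.22 in CPM for Dex+Zj7 over vehicle, 8.75 and 8.88 for Dex over vehicle, and 0.700 and 0.701 for Dex+Zj7 over Dex. The widest gap among the members was that of the scarce *Cdkn2c*, at 0.731 in FPKM and 0.650 in CPM for Dex+Zj7 over vehicle.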
